A study of Homo sapiens with 6 samples.

Results

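The E2F transcription factors, the pocket proteins of the RB family, MYBL2 and FOXM1 are the regulators that switch the genes of DNA replication and mitosis on and off, and their messenger RNAs are described here in irradiated prostate cancer cells. The list named 10 genes: the activator E2Fs E2F1, E2F2 and E2F3, the repressor E2Fs E2F7 and E2F8, the pocket proteins RB1, RBL1 and RBL2, and MYBL2 and FOXM1. They were found by symbol, and 9 of the 10 had a row among the 16311 genes of the expression table. E2F2 had none and is not analysed here, and each of the other 9 stood on a single row.

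LNCaP, an established line of androgen-sensitive human prostate adenocarcinoma cells, was grown in RPMI1640 medium with 10% FBS. The compared groups were 3 libraries of LNCaP cells given a cumulative 40 Gy of what the labels call FIR, an abbreviation they do not spell out, and 3 libraries of untreated LNCaP cells. The series title ties FIR to radiation and to neuroendocrine-like cells. All libraries come from 1 cell line. The labels give neither the fraction size nor the time between the last dose and harvest. They number the replicates BR1 to BR3 without spelling out BR, and do not state whether these were separate cultures. The spread behind each p-value is therefore that of 3 libraries a group and may be technical.

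Activator E2Fs turn on the genes of the G1/S transition. Unphosphorylated RB1 binds and silences them, and cyclin-dependent kinases release them by phosphorylating RB1. RBL1 (p107) and RBL2 (p130) join E2F4, a DP subunit and the MuvB core to form DREAM, the complex that silences cell cycle genes in quiescent and p53-arrested cells. In cycling cells MuvB instead binds MYBL2 (B-MYB) and then FOXM1, which activate the genes of G2 and mitosis. E2F7 and E2F8 bind E2F sites without a DP partner or a pocket protein and repress their targets late in the cycle. Most of these regulators are themselves E2F targets, and loss of RB1 is a known feature of neuroendocrine prostate cancer.

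Promoter sequence from RefSeq (GRCh38.p14) was matched for 8 of the 10 listed genes, with 2 annotated starts each for E2F3 and RBL2. FOXM1 and E2F8 were not matched. The window of 250 bases before to 50 after each start was searched on both strands for the E2F forms TTTCGCGC, TTTGGCGC, TTTCCCGC and TTTGCCGC, for the cell cycle homology region (CHR, TTTGAA or TTCGAA) that MuvB recognises, and for CCAAT. None of the E2F forms overlaps a CHR form. The 150 bases before the start are shown for E2F1, RBL1 and E2F3, the measured regulators with E2F letters, whose fold changes were unlike. Capitals mark E2F forms in either direction and CHR forms.
E2F1 (chr20:33686386-33686535, minus strand): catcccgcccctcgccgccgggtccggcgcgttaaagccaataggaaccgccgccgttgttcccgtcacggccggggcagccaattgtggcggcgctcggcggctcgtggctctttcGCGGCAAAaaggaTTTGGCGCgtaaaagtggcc
RBL1 (chr20:37095998-37096147, minus strand): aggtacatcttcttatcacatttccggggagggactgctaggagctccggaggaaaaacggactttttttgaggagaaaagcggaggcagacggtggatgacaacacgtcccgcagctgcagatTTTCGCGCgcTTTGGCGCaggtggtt
E2F3 (chr6:20401729-20401878, plus strand, upstream start): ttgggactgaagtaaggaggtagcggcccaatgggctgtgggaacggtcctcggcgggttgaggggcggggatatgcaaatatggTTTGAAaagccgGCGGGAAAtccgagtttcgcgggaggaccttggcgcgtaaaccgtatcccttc

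E2F1 held 2 E2F forms, beginning at positions -33 (as its reverse complement GCGGCAAA) and -20 relative to the start, and RBL1 held 2, at -26 and -16. E2F3 held 1 E2F form at -53 (as GCGGGAAA) and a CHR form at -65. E2F2, which was not measured, held TTTGGCGC at -42. The windows of E2F7 and MYBL2 held no E2F or CHR form, E2F7 held 4 CCAAT boxes, and that of the upstream RBL2 start held a CHR form 24 bases after it. For RB1 the table's start lies inside the gene rather than at its 5′ end, so its window is not described. An E2F form stood in 3.99% of 27305 genes with such windows, and CHR and CCAAT stood in 19.5% and 39.7%. These matches are letters in a window, not bound sites, and a window without them says nothing of the factor.

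The libraries held 15703483 to 16542096 counted reads in FIR cells and 16805679 to 21004697 in untreated cells. Values are CPM (read counts scaled to library size with TMM factors) or, for comparisons between genes, RPKM (also per kilobase of the gene model). A fold change is FIR over untreated, tested for each gene by edgeR's quasi-likelihood test with Benjamini-Hochberg adjustment over all 16311 genes at a threshold of 0.05. All 8 prostate luminal markers looked for were present, with a summed level of 7390 to 8204 CPM in FIR libraries and 7214 to 7810 CPM in untreated libraries. Of these markers 5 were higher in FIR cells, among them KRT8 (1.74 times), 2 were lower, KLK3 and HOXB13 (log2 fold changes -0.37 and -0.31), and 1 did not pass. None of 6 immune markers had a row. Of 6 fibroblast markers 2 did, with a summed level of 4.77 to 7.39 CPM in FIR and 23.8 to 26.8 CPM in untreated libraries, and of 5 endothelial markers only VWF did, at 5.08 to 6.22 CPM in FIR and 28.8 to 40.6 CPM in untreated libraries. The part of those markers in the results was not tested. Untreated replicate 3 stood apart. It was the lowest untreated library for all 28 listed G1/S target genes and all 28 listed G2/M target genes, beside 6133 of all 16311 genes. In the 2 lists it stood at a median of 71.3% and 78.9% of the mean of replicates 1 and 2, against a median of 99.97% over all genes.

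Of the 9 measured regulators 7 fell, RBL2 rose and E2F3 did not pass. Over all genes 48.7% passed, 23.4% lower and 25.4% higher. The falls were not alike: MYBL2, FOXM1, E2F8 and E2F1 were at least 16-fold lower, a size reached by 0.852% of all genes, with E2F1 the last of the 139 genes at that size, while RB1 was 1.24 times lower. E2F8 reached 0.6 CPM, the lowest level at which any gene was kept in the table, in untreated libraries only, so it could be listed only through the group where it was high. The median log2 fold change over the 9 was -1.85, beside 0.01 over all genes. In bulk RNA, fewer cells that carry a transcript and less of it per cell cannot be told apart.

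**Figure D1:**
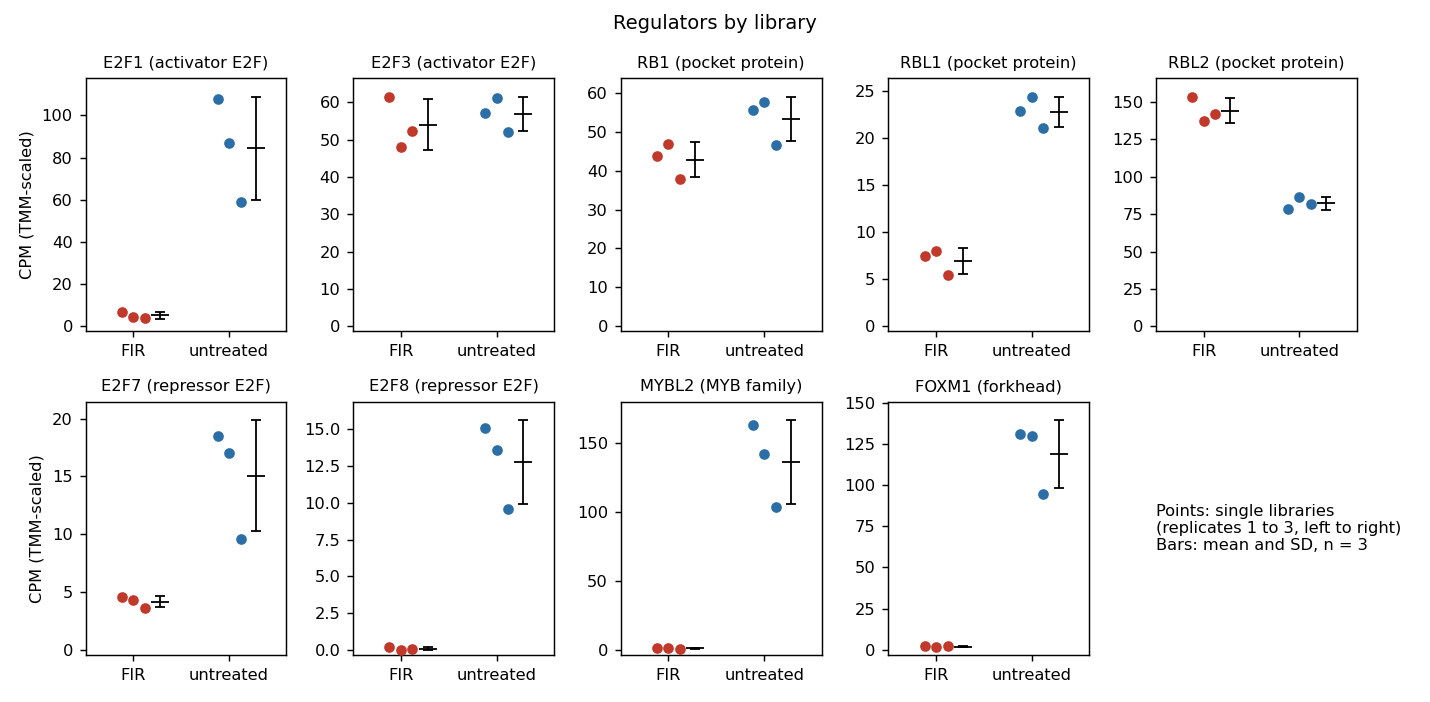
TMM-scaled CPM (vertical axes, linear from 0) of the 9 measured regulators in each library, with FIR libraries in red on the left and untreated libraries in blue on the right of each panel; bars give the mean and SD of 3 libraries. The FIR points of E2F1, E2F8, MYBL2 and FOXM1 sit near 0, those of RBL2 lie above all untreated points, and those of E2F3 lie on both sides of and within the untreated range.

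Among the activator E2Fs, E2F1 and E2F3 parted. E2F1, the best known activator (ENSG00000101412.13, hg38 chromosome 20, 33675477 to 33686385, minus strand), had 6.85, 4.60 and 3.90 CPM in FIR libraries, against 107.6, 86.7 and 59.1 CPM in untreated libraries. Every FIR library lay far below the lowest untreated one. Its log2 fold change was -4.04 (SE 0.22, adjusted p = 1e-09, edgeR), and it ranked 139th from the lowest of 16311 genes. With each library left out in turn it ranged from -4.31 to -3.84 and stayed past the threshold. It was under 16-fold without untreated replicate 1 (-3.84), FIR replicate 3 (-3.88) or FIR replicate 2 (-3.97), and was -4.26 without untreated replicate 3.

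E2F3, whose gene encodes an activator isoform and a shorter isoform from an internal start (ENSG00000112242.15, chromosome 6, 20401879 to 20493714), had 61.5, 48.1 and 52.3 CPM in FIR libraries, against 57.1, 61.1 and 52.1 CPM in untreated libraries. The groups overlapped, with the highest and the lowest value of all 6 both in FIR cells. Its log2 fold change was -0.07 (SE 0.10, adjusted p = 0.573), with a 95% interval of -0.29 to 0.14. A fall as large as that of E2F1 lies outside that interval. Counts are per gene, so the isoforms from the 2 starts cannot be told apart.

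Per length, E2F1 stood at 1.90 ± 0.57 RPKM in FIR cells and 31.4 ± 9.05 RPKM in untreated cells (SD, n = 3 each). E2F3 stood at 10.4 ± 1.32 RPKM in FIR cells and 10.9 ± 0.87 RPKM in untreated cells. E2F3 therefore made up 84.7% ± 2.58 of the summed E2F1 and E2F3 level in FIR cells and 26.6% ± 4.91 in untreated cells. The sum itself was 12.3 ± 1.84 RPKM in FIR cells and 42.3 ± 9.61 RPKM in untreated cells. Taken within each library with 0.1 RPKM added to each level, the log2 ratio of E2F1 to E2F3 was -2.17, -2.37 and -2.72 in FIR libraries, against 1.85, 1.44 and 1.12 in untreated libraries. The groups did not overlap and their means differed by -3.89. A two-sided exact permutation test gave p = 0.1, the smallest that 3 libraries against 3 allow.

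Both repressor E2Fs fell, E2F8 to almost nothing. E2F8 (ENSG00000129173.13, chromosome 11, 19224063 to 19241620, minus strand) had 3, 0 and 1 reads in FIR libraries, against 289, 293 and 164 reads in untreated libraries. Over the groups these are 4 and 746 reads, which makes untreated cells 160 times higher per read sequenced, with a 95% counting interval of 62.1 to 588 that covers counting error only. The fitted log2 fold change was -7.14 (SE 0.41, adjusted p = 1.9e-09, edgeR) and ranked 22nd from the lowest.

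E2F7 (ENSG00000165891.16, chromosome 12, 77021248 to 77065569, minus strand) had 4.59, 4.28 and 3.65 CPM in FIR libraries, against 18.5, 17.04 and 9.57 CPM in untreated libraries. The groups did not overlap, although untreated replicate 3 had 53.8% of the mean of the other untreated libraries. The log2 fold change was -1.85 (SE 0.23, adjusted p = 7.6e-06), and -2.11 without that library. E2F7 was thus 3.61 times lower, with a 95% interval of -2.34 to -1.37. The fitted interval of E2F8, -8.01 to -6.26, rests on 4 FIR reads and is not a firm bound. Across the alternatives tried E2F8 ranged from -8.36 to -6.61, which lies below the interval of E2F7.

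In FIR cells E2F7 supplied 97.2% ± 2.87 of the summed repressor E2F level per length, against 43.2% ± 3.04 in untreated cells (SD, n = 3 each). The summed level was 0.683 ± 0.089 RPKM in FIR cells and 5.48 ± 1.45 RPKM in untreated cells. Within libraries the log2 ratio of repressor to activator E2Fs averaged -3.98 ± 0.13 in FIR cells and -2.94 ± 0.09 in untreated cells. The difference of -1.04 had p = 0.1 in the two-sided exact permutation test, again the smallest possible, and it moved with the pseudocount, to -1.21 with none and -0.23 with 1 RPKM.

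The pocket proteins moved in different directions. RBL2 (ENSG00000103479.16, chromosome 16, 53433977 to 53491648), the p130 protein of DREAM in resting cells, had 153.6, 137.1 and 142.2 CPM in FIR libraries, against 78.1, 86.7 and 81.9 CPM in untreated libraries. All FIR libraries lay above all untreated ones, and it was 1.75 times higher (log2 fold change 0.81, SE 0.08, adjusted p = 8.1e-07, edgeR). RBL2 was the only member to rise, and it ranked 1994th from the highest among all genes.

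RBL1 (ENSG00000080839.11, chromosome 20, 36996349 to 37095995, minus strand), the p107 protein found mainly in cycling cells, had 7.46, 7.97 and 5.41 CPM in FIR libraries, against 22.9, 24.3 and 21.1 CPM in untreated libraries. Every FIR library was under the lowest untreated one. The fall was 3.28 times (log2 fold change -1.71, SE 0.15, adjusted p = 2.5e-07).

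RB1 (ENSG00000139687.15, chromosome 13, 48303726 to 48599436), the retinoblastoma protein, had 43.9, 46.8 and 37.9 CPM in FIR libraries, against 55.5, 57.6 and 46.7 CPM in untreated libraries. FIR replicate 2 reached the level of untreated replicate 3, so the groups just overlapped. The log2 fold change was -0.31 (SE 0.10, adjusted p = 0.0202), with a 95% interval of -0.54 to -0.09. That call rests on single libraries: the adjusted p was 0.103 without FIR replicate 3, 0.0534 without untreated replicate 1 and 0.0937 without untreated replicate 2.

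The makeup of the pocket protein messenger RNAs differed between the groups. Per length, the summed level was 27.7 ± 1.43 RPKM in FIR cells and 23.4 ± 1.45 RPKM in untreated cells (SD, n = 3 each). RBL2 made up 71.8% ± 2.83 of it in FIR cells and 48.4% ± 2.42 in untreated cells. The share of RBL1 was 4.21% ± 0.72 in FIR cells and 16.3% ± 0.25 in untreated cells, and that of RB1 was 22.3% to 26.4% in FIR libraries and 32.8% to 37.1% in untreated libraries. Within libraries the log2 ratio of RBL1 to RBL2 was -3.97, -3.72 and -4.29 in FIR cells, against -1.46, -1.52 and -1.64 in untreated cells. The log2 ratio of RBL1 to RB1 was lower as well, at -2.35, -2.36 and -2.57 in FIR libraries, against -1.14, -1.11 and -1.01 in untreated libraries. Neither ratio overlapped between the groups, and the mean differences were -2.45 and -1.34. With 1 RPKM added instead of 0.1, the difference for RBL1 to RB1 was -0.88. Each had p = 0.1 in the two-sided exact permutation test, and the p adjusted over the 4 ratios tested here was also 0.1.

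**Figure D2:**
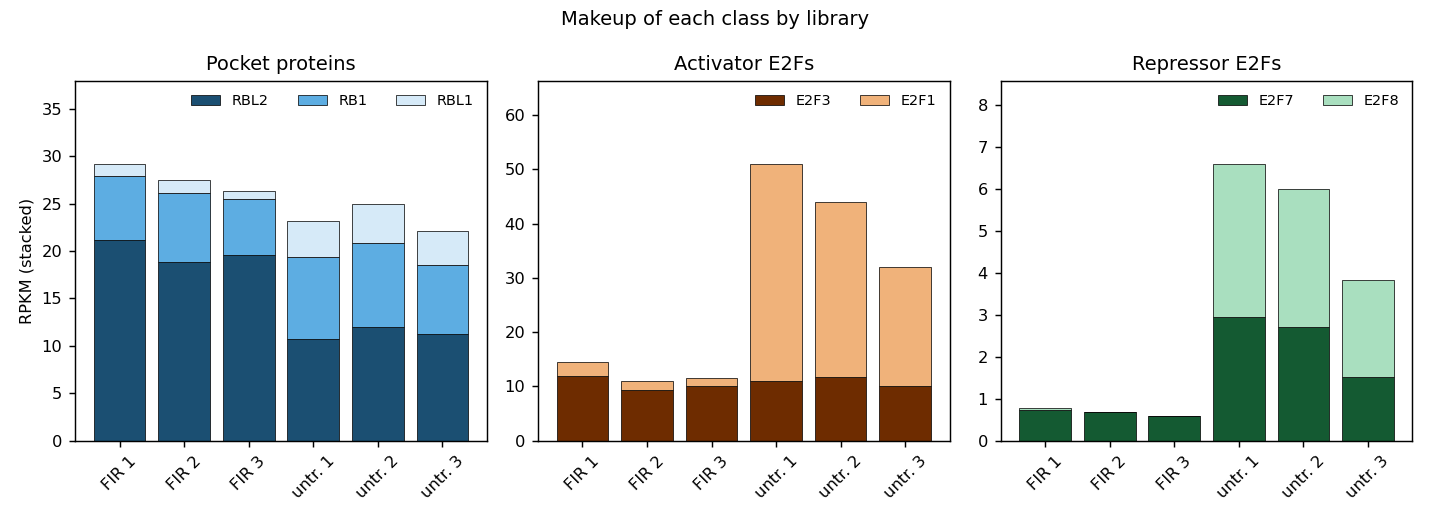
Stacked RPKM (vertical axes, linear from 0) of the pocket proteins, the measured activator E2Fs and the repressor E2Fs, with FIR libraries on the left and untreated libraries on the right. RBL2 takes a mean of 71.8% of the pocket protein bars in FIR cells and 48.4% in untreated cells, and E2F3 takes 84.7% of the activator bars in FIR cells and 26.6% in untreated cells.

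MYBL2 and FOXM1, which bind MuvB in turn as cells move towards mitosis, were nearly lost. MYBL2 (ENSG00000101057.16, chromosome 20, 43667019 to 43716495) had 1.28, 1.43 and 0.692 CPM in FIR libraries, against 162.7, 141.8 and 103.2 CPM in untreated libraries. It was 119 times lower (log2 fold change -6.90, SE 0.22, adjusted p = 5.3e-12, edgeR), the 30th lowest of 16311 genes. The FIR values rest on 21, 22 and 11 reads.

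FOXM1 (ENSG00000111206.12, chromosome 12, 2857681 to 2877155, minus strand) had 2.32, 1.81 and 2.14 CPM in FIR libraries, against 131.0, 129.8 and 94.7 CPM in untreated libraries. All 3 FIR libraries were at about the same low level. It was 56.4 times lower (log2 fold change -5.82, SE 0.16, adjusted p = 2.1e-12) and ranked 56th from the lowest. The 5′ end of FOXM1 shares 898 bases of its annotated span with RHNO1, a DNA damage response gene on the opposite strand. RHNO1 averaged 19.6 CPM in FIR cells and 49.2 CPM in untreated cells (log2 fold change -1.33, SE 0.11, adjusted p = 1.5e-07). ITFG2, also on the opposite strand, shares 2111 bases with the 3′ end of FOXM1 and stood at -0.10 on the log2 scale (SE 0.11, adjusted p = 0.498). The strand setting of the counting is not given in the sources used here, so reads of the shared stretch cannot be assigned with certainty. RBL2 likewise shares 609 bases of span with AKTIP on the opposite strand, which also rose (log2 fold change 0.61, SE 0.08, adjusted p = 2.0e-05). The span of RBL2 also holds 2 measured transcripts on the opposite strand, AC007342.7, which rose (1.18, SE 0.33, adjusted p = 0.00821), and AC007342.6 (0.75, SE 0.57, adjusted p = 0.3). RB1 holds LPAR6 (0.52, SE 0.22, adjusted p = 0.0692) and RCBTB2 (0.14, SE 0.26, adjusted p = 0.685) on its opposite strand.

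The order of the regulators by level differed between the groups. In FIR cells RBL2 was highest at 19.9 ± 1.16 RPKM, followed by E2F3, RB1, E2F1, RBL1, E2F7, FOXM1, MYBL2 and E2F8 (SD, n = 3). There only FOXM1 and MYBL2, at 0.427 and 0.408 RPKM, were neighbours whose libraries overlapped. In untreated cells the order was MYBL2, E2F1, FOXM1, RBL2, E2F3, RB1, RBL1, E2F8 and E2F7, from 49.0 ± 10.9 down to 2.39 ± 0.76 RPKM. The libraries of MYBL2 and E2F1 overlapped there, as did those of E2F1 and FOXM1, of RBL2 and E2F3, of RBL1 and E2F8, and of E2F8 and E2F7.

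Among the partners of these regulators, log2 fold changes of E2F and DP subunits lay between -0.89 and 0.56. Of 6 listed E2F and DP subunits 5 had a row, of which 3 fell, TFDP2 rose and E2F5 did not pass. Over all genes 23.4% fell and 25.4% rose. TFDP1, the main DP partner of E2Fs, averaged 71.1 ± 1.04 CPM in FIR cells and 131.4 ± 7.02 CPM in untreated cells (SD, n = 3 each; log2 fold change -0.89, SE 0.08, adjusted p = 2.1e-07). TFDP2, the other DP subunit, averaged 103.7 ± 4.34 CPM in FIR cells and 70.3 ± 4.97 CPM in untreated cells (log2 fold change 0.56, SE 0.08, adjusted p = 4.2e-05). E2F4, the usual DREAM partner of the pocket proteins, fell by 0.23 on the log2 scale (adjusted p = 0.0486), and E2F6, a repressor that works with Polycomb proteins, fell by 0.44 (adjusted p = 0.031). E2F5, another partner of RBL2, had a log2 fold change of -0.19 (adjusted p = 0.254). The median of these 5 was -0.23, beside 0.01 over all genes. The fall of TFDP1 and the rise of TFDP2 passed in all 14 alternatives tried. E2F4 passed in 9 of 14 and was lost with limma-voom (adjusted p = 0.0529), with a replicate block (0.0553) and without FIR replicate 1 (0.102), FIR replicate 2 (0.171) or untreated replicate 1 (0.199). E2F6 passed in 12 of 14 and was lost without FIR replicate 1 (adjusted p = 0.143) or untreated replicate 2 (0.132).

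The subunits of the MuvB core were uneven. Of the 5 subunits and the MYB family genes MYB and MYBL1, all measured, 5 genes fell, none rose and 2 did not pass. Among all genes 23.4% fell and 25.4% rose. LIN9 (log2 fold change -2.06, SE 0.18, adjusted p = 2.0e-07) and the DNA-binding subunit LIN54 (-0.80, SE 0.14, adjusted p = 2.1e-04) fell, and so did RBBP4, a histone chaperone of several complexes (-0.24, SE 0.07, adjusted p = 0.0107). LIN52, whose phosphorylation by DYRK1A directs MuvB to DREAM, stood at -0.30 (SE 0.17, adjusted p = 0.145; -0.50 and 0.0057 without untreated replicate 3), and LIN37 at 0.08 (SE 0.27, adjusted p = 0.825). The MYB family members MYBL1, at -2.32 (SE 0.23), and MYB, at -3.21 (SE 0.50), fell with MYBL2. MYB was scarce, at 0.402 CPM in FIR cells and 3.73 CPM in untreated cells. Its FIR libraries held 5, 11 and 3 reads. Only 1 of them reached 0.6 CPM, so MYB could be listed only through untreated cells. The median of the 7 was -0.80.

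**Figure D3:**
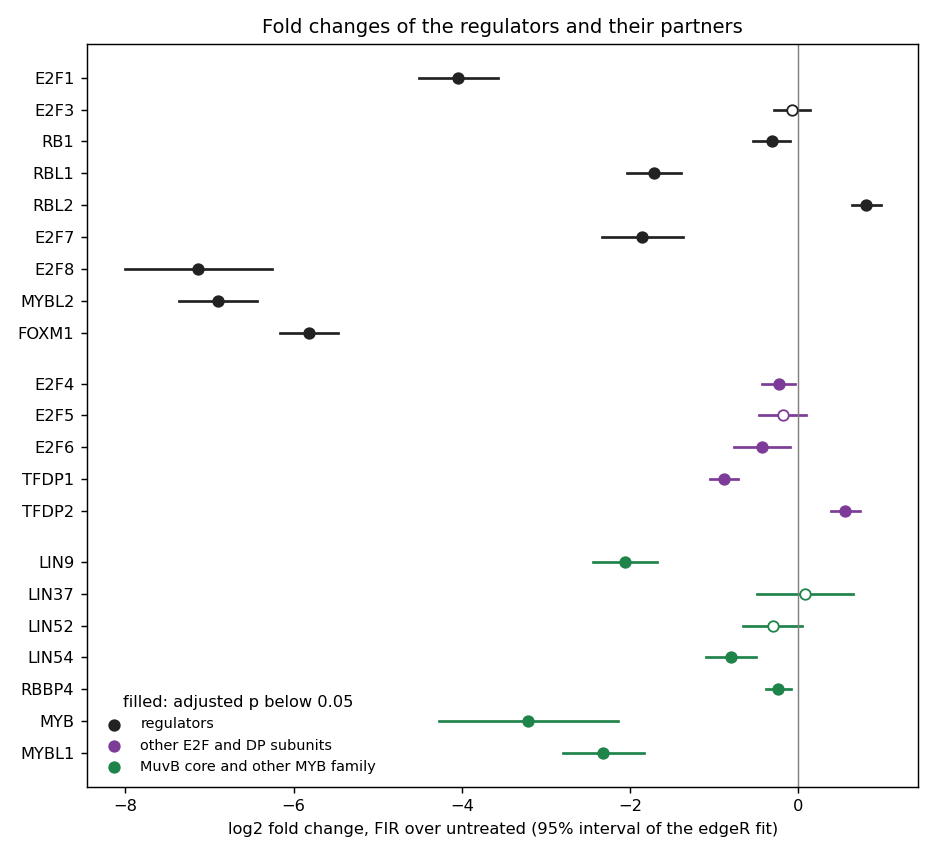
Log2 fold change of FIR over untreated (horizontal axis, points) with the 95% interval of the edgeR fit (lines) for the 9 measured regulators, other E2F and DP subunits, and the MuvB core with other MYB family genes; filled points passed an adjusted p of 0.05. E2F8, MYBL2 and FOXM1 lie between -7.14 and -5.82, while RBL2 and TFDP2 lie to the right of 0.

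Upstream of RB1, none of 9 measured cyclins and kinases that act on pocket proteins rose, 7 fell and 2 did not pass. Over all genes 23.4% fell. The median log2 fold change of the 9 was -1.45. The largest falls were those of CCNA2, the S and G2 phase cyclin A (-4.64, SE 0.22), and CDK1, the mitotic kinase (-4.55, SE 0.15), with adjusted p of 1.9e-10 and 7.9e-12. CDK2, CCNE1 and CCNE2 lay between -1.91 and -1.45. The G1 cyclins CCND1 (-0.55, adjusted p = 2.8e-05) and CCND3 (-0.72, adjusted p = 6.9e-05) fell less. The G1 kinases CDK4 (-0.17, adjusted p = 0.104) and CDK6 (0.68, adjusted p = 0.0844) did not pass. Of 6 measured CDK inhibitors 2 rose, 3 fell and 1 did not pass, where 25.4% of all genes rose and 23.4% fell. CDKN1A, the p21 inhibitor induced by p53, rose by 3.01 (SE 0.11), and CDKN2C, an inhibitor of CDK4 and CDK6, fell by 3.74 (SE 0.17). The other inhibitor that rose was CDKN2B (2.38, SE 0.28, adjusted p = 4.5e-06, edgeR). The other falls were smaller, those of CDKN2A (-0.46, SE 0.12) and CDKN2D (-0.47, SE 0.17). Among 10 corepressors, the DREAM kinase DYRK1A and RB phosphatases, 2 rose, 3 fell and 5 did not pass, with changes between -0.43 and 0.58. That share of calls is near the 48.7% of all genes. ARID4A, an RB1-binding protein, was the highest of these at 0.58 (SE 0.12, adjusted p = 0.00125), and HDAC2, a histone deacetylase, the lowest at -0.43 (SE 0.08, adjusted p = 2.2e-04).

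Downstream, all 28 listed G1/S target genes of E2F and all 28 listed G2/M target genes of MYBL2 and FOXM1 were measured, and all of them fell, where 23.4% of all genes did. Their median log2 fold changes were -2.88 and -4.90. In these lists 5 and 11 genes stayed under 0.6 CPM in at least 1 FIR library, so some could be listed only through untreated cells. The largest falls among G1/S genes were those of the replication factor MCM10 (-7.45, SE 0.36) and the ribonucleotide reductase subunit RRM2 (-6.87, SE 0.23), and the smallest was that of SLBP, the histone messenger binding protein, which was 1.99 times lower. Among G2/M genes the largest were those of BIRC5, survivin (-8.05, SE 0.25), and the centrosomal kinase NEK2 (-8.02, SE 0.26). The smallest G2/M fall was that of CCNF, cyclin F (-1.64, SE 0.13). MCM10, RRM2, BIRC5 and NEK2 were themselves under 0.6 CPM in at least 1 FIR library. Their FIR reads were 6, 0 and 6 for MCM10 and 23, 9 and 23 for RRM2. They were 8, 4 and 10 for BIRC5 and 1, 2 and 3 for NEK2, so the sizes of these largest falls are not firm. The summed level of the G1/S genes was 536 to 545 CPM in FIR libraries and 2133 to 3141 CPM in untreated libraries. That of the G2/M genes was 102.4 to 109.0 CPM in FIR libraries and 1570 to 2098 CPM in untreated libraries. Both sums thus varied little among FIR libraries, and replicate 3 was lowest in untreated cells.

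**Figure D4:**
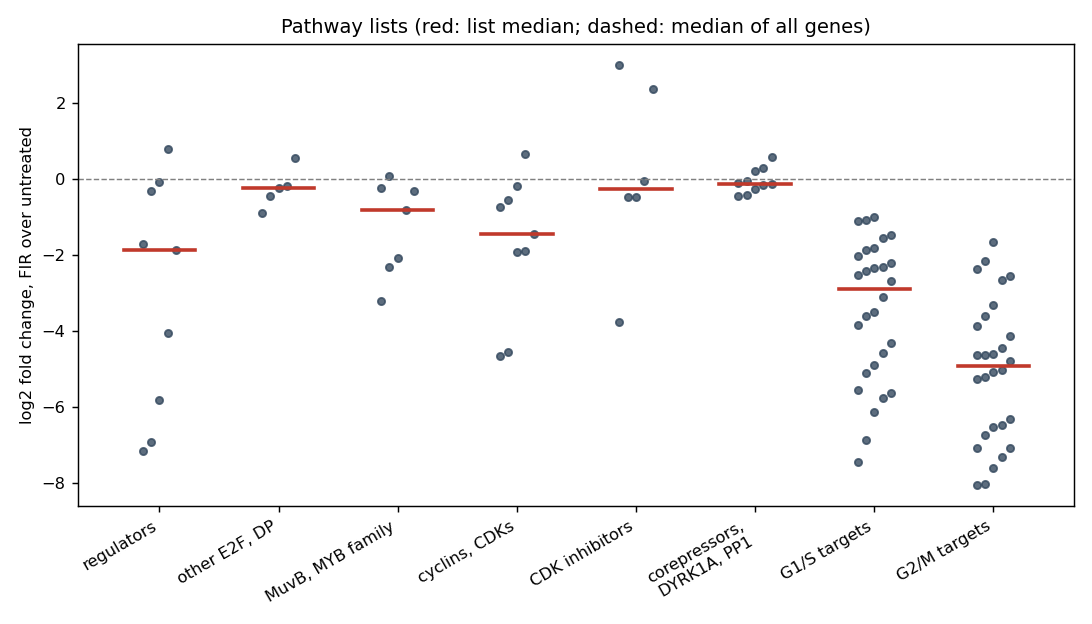
Log2 fold change of FIR over untreated (vertical axis) for each measured gene of the regulators and the 7 pathway lists (points), with list medians in red and the median of all genes as a dashed line. All 28 G1/S and all 28 G2/M targets lie below 0, with medians of -2.88 and -4.90, while the points of the list of other E2F and DP subunits lie between -0.89 and 0.56 and those of the corepressor list between -0.43 and 0.58.

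The 2 target lists were compiled from textbook knowledge of their regulators, with earlier results of these data known. The letters in their promoters are given beside them and do not test the lists. Of 24 G1/S genes with a RefSeq window 58.3% held an E2F form and 8.33% a CHR form. Of 23 G2/M genes 8.70% held an E2F form and 73.9% a CHR form. Over the 10503 genes of the expression table with a window the shares were 6.41% and 15.1%. Among the 673 of these genes with an E2F form 38.3% were lower in FIR cells, and among the 9830 without one 25.7% were. For a CHR form the shares were closer, at 29.7% of the 1586 genes with one and 26.0% of the 8917 without. These shares are descriptions over genes, which are not independent.

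Genes with the most similar profile were sought for each regulator by the root mean square difference of centred log2 CPM over the 6 libraries, among the 14627 genes that averaged 1 CPM or more. For E2F1 these were ZWINT and AURKA (differences of 0.126 and 0.186), for MYBL2 AURKB and FAM83D (0.124 and 0.237), for FOXM1 TROAP and ANLN (0.109 and 0.116), and for E2F8 HJURP and ASPM (0.244 and 0.246). All of these are known for roles in mitosis or at the centromere. E2F8 had only 3, 0 and 1 reads in FIR libraries. Its log2 CPM there rested largely on the added count of 2, so its nearest profiles are uncertain. HJURP had a log2 fold change of -6.25, against -7.14 for E2F8. E2F7 was closest to SUV39H1, a histone methyltransferase, and AC140479.2 (0.121 and 0.139), and RBL1 to CLGN and DEK, a chromatin protein (0.0859 and 0.0895). RB1 was closest to MRPL50 and MTUS1 (0.0540 and 0.0559), E2F3 to DDHD1 and RPAP2 (0.0246 and 0.0303), and RBL2 to PIK3C3 and FAM160B1 (0.0212 and 0.0343). All these likenesses are over the same 6 libraries in 2 groups and are descriptions.

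In the authors' deposited table the calls of all 9 measured regulators were the same as here, with E2F3 at a log2 fold change of -0.07 (adjusted p = 0.604) and RB1 at -0.31 (adjusted p = 0.0124). FIR and untreated libraries did not overlap for 7 of the 9, beside 56.9% of all genes.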

How the data were processed

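RNA sequencing of 3 FIR and 3 untreated LNCaP libraries was used. Raw read counts by gene and library, and gene lengths, were deposited by the authors, per the file headers. Their log2 fold changes (FIR over untreated) and adjusted p-values stand in the same deposited table, also per the headers. Versions of STAR (2.5), Subread (1.6.2) and edgeR (3.20.8), besides bcl2fastq, featureCounts and hg38, come from the submitters' processing notes, which give no roles. The annotation release, strand setting and low-count filter were not given in the sources used; no gene was under 0.605 CPM in its third-highest library. Another 12 columns of per-library log values were not used.

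Counts were scaled by TMM and fitted with edgeR 4.0.16 (R 4.3.3; glmQLFit, glmQLFTest, group only); filterByExpr (minimum count 10) removed 0 genes. Scipy 1.17.1 ran the exact permutation tests. No spike-in was used, so changes are relative to other genes. The fitting code was tested on simulated data. The 10 regulators, pathway lists, motifs and tests were chosen with earlier results of these data known. The text names all regulators, all E2F, DP, MuvB and MYB genes, the 2 most changed called genes averaging 1 CPM or more from each other list, and the 2 nearest profiles. Genes overlapping a regulator, DYRK1A, CCND1, CCND3, CCNE1, CCNE2, CDK2, CDK4, CDK6, SLBP, CCNF and the markers were named after their values were seen. So were CDKN2A, CDKN2B and CDKN2D. Libraries of a group differed by 4.82 to 14.9 times the variance of counting alone, so none was the same counts deposited again; this does not show separate cultures.

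Alternatives were RLE, upper-quartile and library-total scaling, DESeq2 1.42.0, limma-voom (limma 3.58.1), no filter, 1 CPM in 3 libraries, a replicate block, each library left out, and for ratios other pseudocounts and CPM.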

Additional observations from a re-analysis of the deposited data

How the results depend on the processing

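Across 17 alternatives and 31 results, 413 of 418 values kept their direction and their side of the threshold, or for counts stayed within 1.5 times. The other 5 came from leaving out 1 library. Part of the 413 was fixed in advance. For the 4 ratios the permutation p could not fall below 0.1 in any setting, which is above the threshold. Only the direction of those ratios was therefore open to change, and it stayed the same. The values with no filter repeated the main fit. RB1 ranged from -0.42 to -0.23 when each library was left out, and its call was lost without FIR replicate 3, untreated replicate 1 or untreated replicate 2. E2F3, which passed in 0 of 14 alternatives (adjusted p from 0.169 to 0.989), ranged from -0.18 to 0.00, and its sign turned to 0.0025 without FIR replicate 2. The count of lower E2F and DP subunits ranged from 1 to 3, with 1 without FIR replicate 1. There E2F4 and E2F6 no longer passed (adjusted p = 0.102 and 0.143, edgeR), while TFDP1 did. Why those calls depend on that library was not tested. The other 7 measured regulators passed in all 14 alternatives, with ranges of -4.31 to -3.84 for E2F1, -2.11 to -1.69 for E2F7, -8.36 to -6.61 for E2F8, -1.82 to -1.56 for RBL1, 0.76 to 0.85 for RBL2, -7.09 to -6.64 for MYBL2 and -5.98 to -5.73 for FOXM1. At the lowest depth, 15703483 reads, 3 reads are 0.191 CPM, so E2F8 in FIR cells is at the limit of detection. Dropping the filter changed nothing, since it had removed no gene.

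In the fit with a replicate block, 7 regulators were lower and 1 higher, as without it. The count of lower E2F and DP subunits was 2 with the block, since E2F4 no longer passed, and also 2 with limma-voom. Sign flips of the 3 pairs in an exact permutation test gave p = 0.25 for each of the 4 ratios, the smallest they allow. The deviations of libraries with the same number had correlations of 0.06, -0.06 and -0.08, and the numbers were not taken to pair the samples.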
